A study of Bos taurus with 6 samples.

Results

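Respiratory complex I, the NADH:ubiquinone oxidoreductase of the inner mitochondrial membrane, was described through 37 nuclear genes that encode its subunits in cattle. The genes were taken from a list of subunit symbols, and each had at least 1 probe set annotated with that symbol alone. They were 37 of the 9155 genes that the array measured with such a probe set. Together they had 48 probe sets, and each gene is represented below by the probe set with the highest mean over the 6 arrays. In the ARS-UCD2.0 gene table all 37 are listed with an unchanged symbol.

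RNA came from the longissimus thoracis, a long back muscle, of 6 Japanese Black steers (castrated males of a beef breed), with 1 array a steer. In the vitamin A restricted group (n = 3), steers received no vitamin A supplement, and they were 589, 595 and 611 days old. The vitamin A supplemented group (n = 3) was given 296.8 IU per kg body weight by mouth each week, and its steers were 600, 612 and 618 days old. All 6 were fattened for 7 months, starting at 13 to 14 months of age, at a planned growth of 1.0 kg a day. The labels give neither the vitamin A content of the basal feed nor a vitamin A level in blood or liver, so the diet itself is the whole definition of each group.

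Complex I takes electrons from NADH in the mitochondrial matrix, passes them along a flavin and a chain of iron-sulfur clusters to ubiquinone, and uses the energy to pump protons across the inner membrane. It has the shape of an L, with a hydrophilic arm that reaches into the matrix and carries the redox groups, and a hydrophobic arm in the membrane that pumps. A small set of core subunits does the chemistry, and a larger set of accessory subunits surrounds, stabilizes and helps to assemble them. In skeletal muscle the complex feeds the respiratory chain with electrons from the citric acid cycle and from fatty acid oxidation, and oxidative fibres hold more of it than glycolytic ones.

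Values are those the authors deposited, taken as log2 expression. Their spread between arrays is very narrow, for a reason the sources used here do not give. Over the 6 arrays the highest and lowest value of a complex I gene lay between 0.437 (NDUFS4) and 170.8 (NDUFV1) millionths of a log2 unit apart, where 1 millionth is 1e-06. The median range was 19.2 millionths for the 37 genes and 1.23 millionths for all 9155 genes. No difference is therefore read as a fold change. Steers are given as the distance of their value from the gene's mean over the 6 arrays, in millionths of a log2 unit, and differences between the diets also in units of that gene's standard deviation (SD) within groups. Mean deposited levels of the 37 genes ran from 6.28 (NDUFA10) to 10.3 (NDUFA4), and all lay above the median of 5.14 over all non-control probe sets. Probe sets differ in how brightly they respond, so no order among the subunits is read from these levels.

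Markers of the labelled tissue were high. The 8 measured genes of 11 listed for skeletal muscle fibres had mean levels between 9.71 and 12.67, the highest being ACTA1, the actin of the sarcomere.

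Restricted steers had a higher mean than supplemented steers in 32 of the 37 complex I genes (86.5%), against 49.5% of all genes. The median difference was 0.661 within-group SDs over the 37 genes and -0.00786 over all genes. None of the 37 passed the test: limma with Benjamini-Hochberg adjustment over 24014 probe sets called 0 of them, each with an adjusted p of 1.0. The background is as sparse, since 0.00416% of probe sets were called, a single one, DHRS3, which is not a subunit and is named here after its value was seen. At an unadjusted p under 0.05, 3 complex I genes were higher in restricted steers and 0 lower, where 2.15% of all genes were higher and 2.47% lower. The same 3 genes, NDUFV1, NDUFB3 and NDUFB5, were those in which the diets did not overlap, and in each all 3 restricted steers lay above all 3 supplemented steers. Over all genes, 4.15% had no overlap with restricted steers higher and 4.59% with restricted steers lower. In whole muscle, a different number of fibres rich in mitochondria and a different amount of RNA per fibre cannot be told apart.

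**Figure D1:**
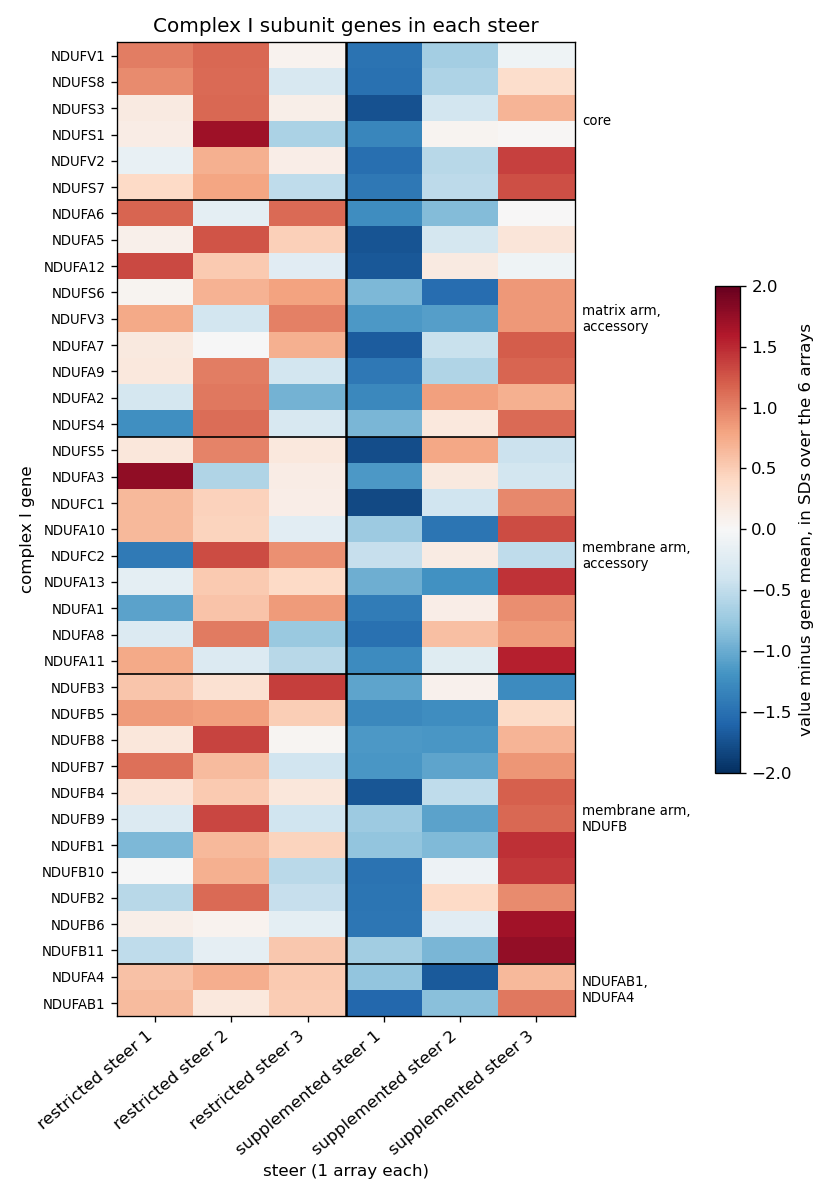
Values of the 37 complex I genes (rows, grouped by role) in each of the 6 steers (columns, restricted left of supplemented), as the distance from the gene's mean in SDs over the 6 arrays. Supplemented steer 1 is the lowest array in 26 genes (70.3%, against 18.7% of all genes) and supplemented steer 3 the highest in 17 (45.9%, against 20.7%).

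The core subunits carry the path of electrons. NDUFV1 binds NADH and the flavin at the tip of the matrix arm, and all 3 of its restricted values lay above all 3 supplemented ones. Its values were 66.4, 75.0 and 4.20 millionths from its mean in restricted steers 1, 2 and 3, against -95.8, -43.8 and -6.04 in supplemented steers 1, 2 and 3. The gap between restricted steer 3 and supplemented steer 3 was thus small beside the spread within either diet. The difference was 97.1 ± 34.3 millionths (SE), or 2.31 SDs with a 95% interval of 0.259 to 4.37 (limma unadjusted p = 0.0346, adjusted p = 1.0).

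NDUFV2, which holds an iron-sulfur cluster beside the flavin, had 6.80 as its highest restricted value, in steer 2. It stood at -1.37 and 1.29 millionths in restricted steers 1 and 3, against -14.3, -5.30 and 12.9 in supplemented steers 1, 2 and 3. The supplemented steers thus held both its lowest and its highest value. Its difference was 0.438 SDs (95% interval -1.62 to 2.49), and without supplemented steer 1 it was -0.190 SDs.

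NDUFS1, the largest core subunit, carries most of the iron-sulfur clusters of the NADH-oxidizing module. Its values were 2.80, 32.0 and -11.8 millionths in restricted steers, against -24.3, 0.948 and 0.433 in supplemented steers, so that restricted steer 2 was the highest array and supplemented steer 1 the lowest. NDUFS3, of the module that hands electrons to ubiquinone, had 3.20, 20.4 and 1.98 millionths in restricted steers, against -31.2, -6.47 and 12.1 in supplemented steers. In NDUFS3 as well, supplemented steer 1 was lowest and restricted steer 2 highest. The differences were 0.816 SDs for NDUFS1 and 1.00 SDs for NDUFS3.

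NDUFS7 holds the last iron-sulfur cluster before ubiquinone. Its values were 11.7, 23.1 and -15.1 millionths in restricted steers, against -42.2, -15.3 and 37.9 in supplemented steers, which again enclose the restricted ones. NDUFS8 carries the iron-sulfur clusters before it, with 9.02, 10.8 and -3.00 millionths in restricted steers, against -14.3, -5.82 and 3.32 in supplemented steers. In NDUFS8 supplemented steer 3 lay between the restricted steers rather than above them. The differences were 0.409 SDs for NDUFS7, which was -0.176 without supplemented steer 1, and 1.37 SDs for NDUFS8. All 6 core genes had a higher mean in restricted steers, against 49.5% of all genes, with a median difference of 0.910 SDs. Of the 6, 1 had no overlap with restricted steers higher and 0 with restricted steers lower, against 4.15% and 4.59% of all genes.

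Of the 9 accessory genes of the matrix arm, 7 had a higher and 2 a lower mean in restricted steers (median 0.961 SDs). NDUFA6 belongs to the family of small proteins with a leucine-tyrosine-arginine motif that bind the acyl carrier protein. It had 55.1, -9.55 and 53.5 millionths in restricted steers, against -58.8, -40.5 and 0.205 in supplemented steers. Restricted steers 1 and 3 stood above all other animals, while restricted steer 2 lay below supplemented steer 3. The difference was 66.1 ± 27.5 millionths (SE) or 1.96 SDs (limma unadjusted p = 0.0573).

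NDUFA5, of the module that hands electrons to ubiquinone, had 0.251, 3.31 and 1.27 millionths in restricted steers, against -4.55, -0.906 and 0.621 in supplemented steers (1.48 SDs). Only supplemented steer 3 reached the restricted range in this gene. NDUFA12, a late-joining subunit that sits where the NADH module meets the rest of the arm, had 65.2, 26.1 and -11.3 millionths in restricted steers, against -84.3, 8.91 and -4.55 in supplemented steers (1.19 SDs). NDUFS6, which binds zinc, had 0.174, 2.23 and 2.61 millionths in restricted steers, against -2.88, -4.91 and 2.77 in supplemented steers (1.13 SDs). Its highest value was thus in supplemented steer 3, and both of the other supplemented steers were below every restricted one. NDUFV3, NDUFA7 and NDUFA9 had differences of 0.961, 0.565 and 0.547 SDs. NDUFA2 and NDUFS4 differed by -0.143 and -0.259 SDs, and their whole ranges, 0.823 and 0.437 millionths, were the narrowest of the 37 genes. NDUFS4 is an accessory subunit needed for a stable NADH module.

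Of the 9 accessory genes of the membrane arm, 8 had a higher mean in restricted steers and 1, NDUFA11, a lower one by -0.0399 SDs. The median was 0.498 SDs. In none were the diets free of overlap, where 4.15% of all genes were so with restricted steers higher and 4.59% with restricted steers lower. NDUFS5 is a small subunit on the side of the intermembrane space. It had 0.186, 0.810 and 0.165 millionths in restricted steers, against -1.44, 0.622 and -0.347 in supplemented steers, with supplemented steer 2 inside the restricted range (1.00 SDs). NDUFA3 had 20.2, -6.86 and 1.74 millionths in restricted steers, against -13.1, 2.15 and -4.19 in supplemented steers (0.901 SDs). Restricted steer 1 alone set the upper end of NDUFA3.

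NDUFC1 had 3.64, 2.59 and 0.775 millionths in restricted steers, against -10.1, -2.26 and 5.33 in supplemented steers (0.842 SDs). NDUFA10, a matrix-facing subunit of the nucleoside kinase family, had 12.9, 8.79 and -4.29 millionths in restricted steers, against -14.3, -28.8 and 25.8 in supplemented steers (0.553 SDs). In both genes the restricted steers lay close together inside the range of the supplemented ones. Among the rest, NDUFC2, which pairs with NDUFC1 in the complex, differed by 0.498 SDs. NDUFA13, also known as the cell death regulator GRIM-19, differed by 0.455 SDs, NDUFA1 by 0.202 and NDUFA8 by 0.0211 SDs. NDUFC2 had its lowest and its highest value among restricted steers, with -20.8, 19.2 and 13.4 millionths in restricted steers, against -6.70, 2.48 and -7.56 in supplemented steers. Its SD was 3.88 times as large in restricted as in supplemented steers, the highest ratio of the 37 genes.

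The NDUFB genes encode accessory subunits of the distal membrane arm, the part that holds the outermost proton pumps. Of 11, 9 had a higher mean in restricted steers and 2, NDUFB6 and NDUFB11, a lower one (median 0.404 SDs). NDUFB3 had 2.91, 1.57 and 7.23 millionths in restricted steers, against -5.54, 0.423 and -6.60 in supplemented steers. It was the only complex I gene in which supplemented steer 3 was the lowest array. The difference was 7.81 ± 2.77 millionths (SE) or 2.30 SDs with a 95% interval of 0.247 to 4.35 (limma unadjusted p = 0.0352, adjusted p = 1.0).

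NDUFB5 had 6.77, 6.56 and 3.90 millionths in restricted steers, against -10.3, -9.95 and 3.00 in supplemented steers. Supplemented steers 1 and 2 stood far below the other 4 animals, and supplemented steer 3 lay just under restricted steer 3. The difference was 11.5 ± 4.47 millionths (SE) or 2.10 SDs with a 95% interval of 0.0461 to 4.15 (limma unadjusted p = 0.0468, adjusted p = 1.0), and 12.1 SDs without supplemented steer 3.

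NDUFB8, often used as the antibody marker of assembled complex I, had 1.53, 9.14 and 0.262 millionths in restricted steers, against -7.70, -7.81 and 4.57 in supplemented steers (1.20 SDs). NDUFB7 had 8.93, 5.16 and -3.06 millionths in restricted steers, against -9.53, -8.64 and 7.14 in supplemented steers (0.928 SDs). The pattern of NDUFB5 recurred in both, with supplemented steers 1 and 2 low, but here supplemented steer 3 lay inside the restricted range. NDUFB4, NDUFB9, NDUFB1, NDUFB10 and NDUFB2 differed by 0.661, 0.404, 0.126, 0.0994 and 0.0732 SDs, NDUFB6 by -0.00570 and NDUFB11 by -0.0884 SDs. In NDUFB6 the 3 restricted steers stood at 0.737, 0.417 and -1.21 millionths, between -8.92 in supplemented steer 1 and 10.3 in supplemented steer 3.

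Of the remaining genes, NDUFAB1 encodes the mitochondrial acyl carrier protein, which also serves lipoic acid and iron-sulfur cluster synthesis. NDUFA4 was named as a complex I subunit and is now assigned to cytochrome c oxidase in mammals. NDUFAB1 had 4.50, 1.49 and 3.57 millionths in restricted steers, against -11.1, -5.92 and 7.51 in supplemented steers (0.924 SDs). NDUFA4 had 0.713, 0.883 and 0.643 millionths in restricted steers, against -0.977, -2.06 and 0.793 in supplemented steers (1.46 SDs). In both, 3 closely spaced restricted steers had supplemented steers 1 and 2 below them. The SD of NDUFA4 was 0.0858 times as large in restricted as in supplemented steers, the lowest ratio of the 37 genes.

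**Figure D2:**
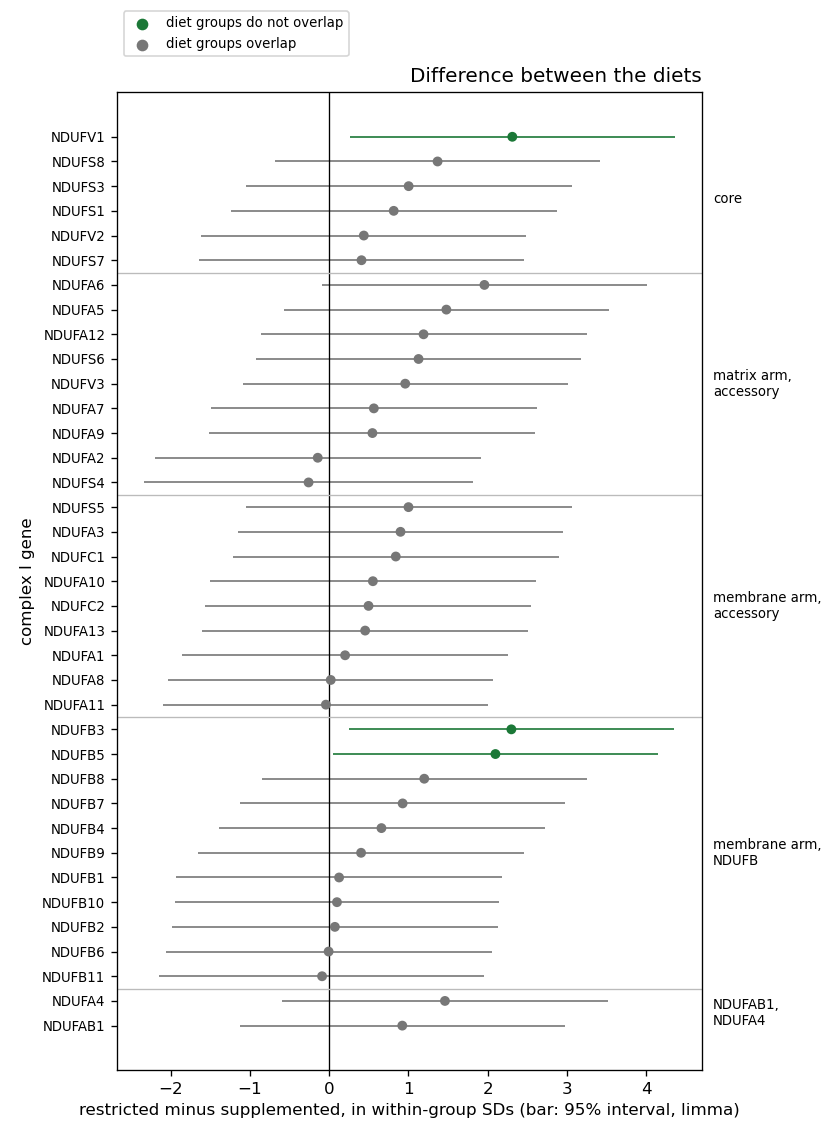
Difference between the diets for each complex I gene, restricted minus supplemented, in within-group SDs with limma's 95% interval. The intervals of NDUFV1, NDUFB3 and NDUFB5 lie above 0 before adjustment, and those of the other 34 genes include it.

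Most of the spread in these genes lay within the supplemented group. The SD over restricted steers exceeded that over supplemented steers in 5 genes (NDUFA3, NDUFA6, NDUFC2, NDUFS1 and NDUFS4), and the SD over supplemented steers was the larger in 32 genes (86.5%, against 52.6% of all genes). The median ratio of restricted to supplemented SD was 0.586 in the 37 genes and 0.946 in all genes. This was not particular to complex I. The supplemented SD was the larger in 82.4% of 17 genes of pyruvate entry and the citric acid cycle (median ratio 0.507). It was the larger in 69.0% of 42 subunits of complexes II to V (median ratio 0.696). In all 11 NDUFB genes the supplemented steers were the more spread out.

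**Figure D3:**
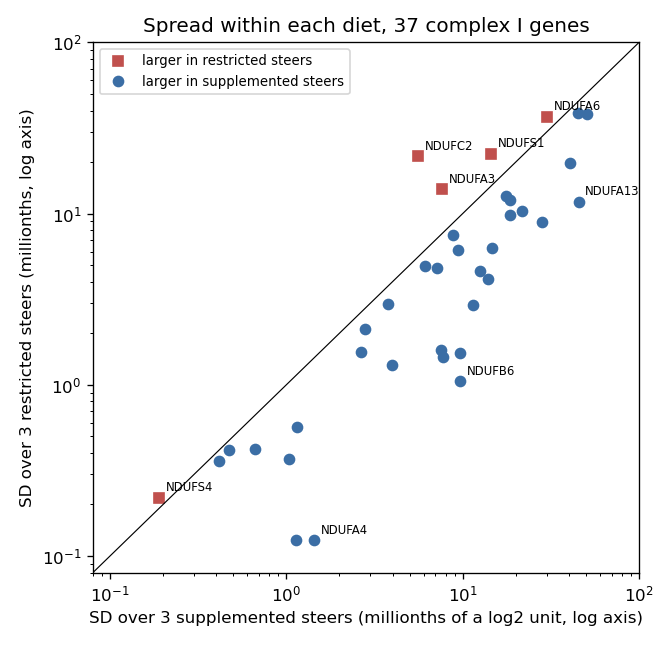
SD over the 3 restricted steers (vertical) against SD over the 3 supplemented steers (horizontal) for the 37 complex I genes, in millionths of a log2 unit on log axes, with the line of equal spread. Of the 37 points, 32 lie below the line, where supplemented steers varied more.

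Supplemented steers 1 and 2 lay below all restricted steers in most genes, while supplemented steer 3 lay above all of them in a minority. Supplemented steer 1 was below all 3 restricted steers in 34 of 37 genes (91.9%, against 26.4% of all genes) and above all of them in 0. Supplemented steer 2 was below all 3 in 24 genes (64.9%, against 24.8%) and above all in 0. Supplemented steer 3 was below all 3 in 4 genes (10.8%, against 22.8%) and above all 3 in 17 genes (45.9%, against 28.7%). Restricted steer 2 was the highest array in 13 genes (35.1%, against 15.8% of all genes). Restricted steer 1 was highest in 5 (13.5%, against 16.4%) and restricted steer 3 in 2 (5.41%, against 15.2%). Restricted steers were rarely at the low end. Steer 1 was lowest in 3 genes, NDUFB1, NDUFC2 and NDUFS4 (8.11%, against 18.4% of all genes). Steers 2 and 3 were lowest in 0, against 18.2% and 12.9% of all genes.

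The median difference was above 0 with any single steer left out, but its size rested on supplemented steers 1 and 3. Without supplemented steer 3, all 37 genes had a higher mean in restricted steers (51.8% of all genes did), and the median difference was 1.98 SDs. In that fit 24 genes had no overlap with restricted steers higher and 0 with restricted steers lower, against 10.5% and 9.33% of all genes. An unadjusted limma p under 0.05 was found for 13 genes that were higher and 0 that were lower, against 3.13% and 2.61% of all genes. None passed the adjusted threshold, at a smallest adjusted p of 0.855, where 0.00833% of probe sets did. Without supplemented steer 1, 24 of 37 genes had a higher mean in restricted steers (47.9% of all genes did) and the median difference was 0.313 SDs. Then 3 genes had no overlap with restricted steers higher and 0 with restricted steers lower, against 8.31% and 10.8% of all genes. None had an unadjusted limma p under 0.05, where 2.01% of all genes were higher and 3.17% lower at that threshold. Without restricted steer 2 the count was 27 of 37 and the median 0.499 SDs, and without each of the other 3 steers the count was 32 to 34 and the median 0.577 to 0.719 SDs.

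The diets also differed in age. Restricted steers were 598.3 ± 11.4 days old and supplemented steers 610.0 ± 9.17 days (SD, n = 3 each; p = 0.2 in a two-sided exact permutation test, where 0.1 is the smallest that this design allows). Supplemented steer 3 was the oldest of the 6, at 618 days. With age as a covariate all 37 genes had a positive difference (52.5% of all genes did), with a median of 1.10 SDs. None had an unadjusted limma p under 0.05 in that fit, which leaves 3 residual degrees of freedom, where 2.44% of all genes were higher and 1.9% lower at that threshold. What part age has in the result was not tested.

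A shift of each array to the same median gave smaller differences, but this median rests on very few probe sets. The same 2 probe sets held the middle ranks on all 6 arrays, and the resulting medians spanned 8.88 millionths and averaged 2.22 millionths higher in restricted steers than in supplemented steers. With the control probe sets included, the medians spanned 1.75 millionths and the offset was -0.475 millionths. The median difference over all non-control probe sets, which does not rest on the middle ranks, was -0.00267 millionths.

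With that shift 24 of 37 complex I genes had a higher mean in restricted steers, against 10.8% of all genes, and the median difference was 0.313 SDs against -0.737 over all genes. The 8 genes that turned to lower include NDUFA4 and NDUFS5. NDUFV1 differed by 2.18 SDs, NDUFB3 by 1.44 and NDUFB5 by 1.18 SDs. In that fit 1 complex I gene had no overlap with restricted steers higher and 0 with restricted steers lower, against 0.546% and 1.52% of all genes. An unadjusted limma p under 0.05 was found for 2 that were higher and 0 that were lower, against 0.535% and 0.863% of all genes.

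**Figure D4:**
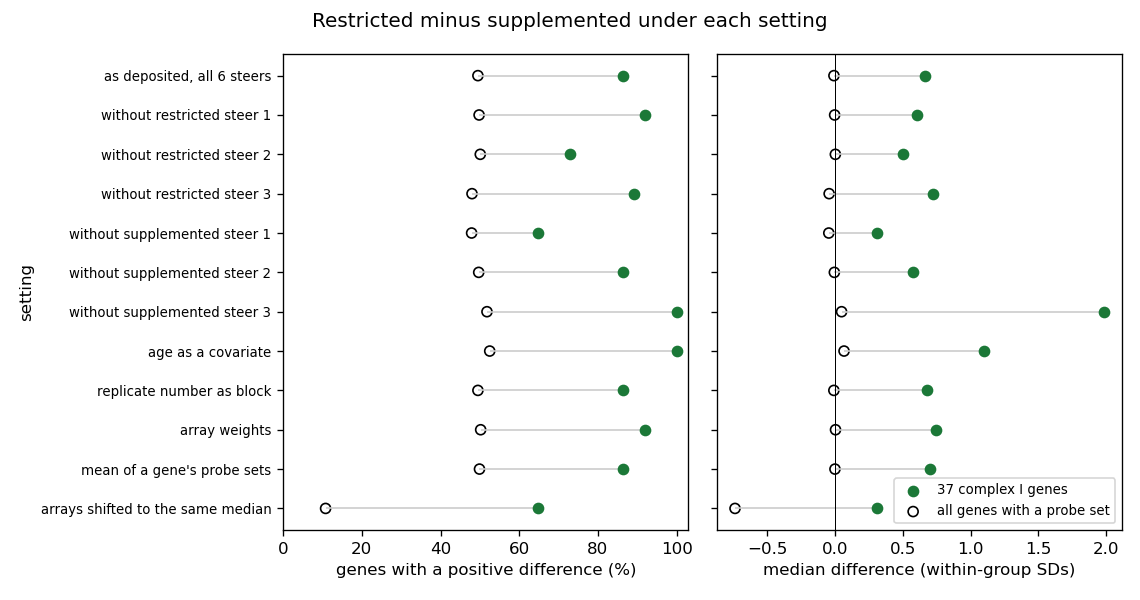
Share of genes with a positive difference (left, in %) and median difference in within-group SDs (right), restricted minus supplemented, for the 37 complex I genes (filled) and all genes with a probe set (open), under 12 settings (quantile normalization is not drawn). The complex I values lie above those of all genes in each setting drawn, with medians from 0.313 without supplemented steer 1 or with arrays shifted to 1 median, to 1.98 without supplemented steer 3. The replicate number as block cannot change a difference, so its shares are those of the fit without it. With quantile normalization, 3 of the 37 complex I genes were higher, against 16.1% of all genes.

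A further 11 probe sets were annotated to 9 of these genes, and 5 of them ran in the direction of the chosen one. These 5 were both further probe sets of NDUFA5, 1 of NDUFB2, 1 of NDUFS3 and 1 of the 2 further probe sets of NDUFS1. The second probe set of NDUFS1, at a level of 5.94, had 44.2, 22.7 and -15.0 millionths in restricted steers, against -44.7, -26.2 and 19.0 in supplemented steers. It thus showed supplemented steer 1 lowest, as the chosen probe set did, but had restricted steer 1 highest. The 6 that ran the other way belonged to NDUFA4, NDUFA7, NDUFA11, NDUFAB1, NDUFB1 and NDUFS1, with differences from -0.685 to 0.0190 millionths. These 6 had mean levels of 4.90 to 5.08, below the median of 5.14 over all probe sets, and none had a range above 1.97 millionths.

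The other parts of oxidative metabolism were read in the same fit. Subunits of complexes II to V, from succinate dehydrogenase to the ATP synthase, had a higher mean in restricted steers in 39 of 42 measured genes, against 49.5% of all genes (median 0.946 SDs). None passed the adjusted test, as 0.00416% of all probe sets did, and 4 had no overlap with restricted steers higher and 0 with restricted steers lower, against 4.15% and 4.59% of all genes. Examples are ATP5F1D and ATP5MC3 of the ATP synthase, at 2.18 SDs each, and ATP5MJ, a small subunit of it, at 2.13 SDs. In pyruvate entry and the citric acid cycle 16 of 17 genes had a higher mean (median 1.03 SDs), and 0 passed. Of these 17, 5 had no overlap with restricted steers higher and 0 with restricted steers lower, against the same 4.15% and 4.59% of all genes. MPC2 of the mitochondrial pyruvate carrier differed by 3.47 SDs, SUCLG1 of succinyl-CoA ligase by 2.56 and IDH3G of the NAD-dependent isocitrate dehydrogenase by 2.25 SDs.

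Genes that build complex I without being part of it were less uniform. Assembly factors had a higher mean in 6 and a lower mean in 6 of 12 measured genes, of 20 listed (median 0.336 SDs). Of all genes, 49.5% were higher. None of the 12 passed the adjusted test, where 0.00416% of all probe sets did. In 1 the diets did not overlap with restricted steers higher and in 0 with restricted steers lower, against 4.15% and 4.59% of all genes. Mean levels ran from 5.06 to 7.32, and the median range was 2.47 millionths, against 19.2 for the subunits. TMEM70, which also serves assembly of the ATP synthase, differed by 2.28 SDs without overlap. It had 5.63, 15.6 and 0.634 millionths in restricted steers, against -8.19, -2.02 and -11.6 in supplemented steers. TMEM126A differed by 1.88 SDs and ECSIT by 1.39 SDs. The 6 with a lower mean were FOXRED1 at -1.10 SDs, NDUFAF5 at -1.005, ACAD9 at -0.488, NDUFAF8 at -0.220, NDUFAF3 at -0.203 and NDUFAF6 at -0.0392 SDs, and the groups overlapped in each of them. Regulators of mitochondrial genes had a higher mean in 3 and a lower mean in 6 of 9 measured genes (median -0.0875 SDs). None of the 9 passed, and 0 were without overlap in either direction, beside the same shares of all genes. Their levels ran from 4.96 to 7.18, with a median range of 3.4 millionths. Both lists thus reached below the median level of 5.14 over all non-control probe sets, which all 37 subunits exceeded. The mitochondrial helicase TWNK differed by -1.10 SDs, the coactivator PPARGC1A by 0.970 and the transcription factor NRF1 by -0.858 SDs. Whether these lists differ from the subunits was not tested.

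Scores make the steers comparable across lists. For a score, each gene's distance from its mean was divided by its SD over the 6 arrays and averaged across the list. The complex I score was 0.215, 0.662 and 0.121 in restricted steers, against -1.28, -0.459 and 0.740 in supplemented steers, so that supplemented steer 3 was the highest of all and steers 1 and 2 the lowest. For complexes II to V it was 0.518, 0.529 and 0.216 in restricted steers, against -1.26, -0.431 and 0.433 in supplemented steers. For pyruvate entry and the citric acid cycle it was 0.510, 0.691 and 0.0409 in restricted steers, against -1.31, -0.379 and 0.449 in supplemented steers. The 3 lists thus placed supplemented steers 1 and 2 below every restricted steer, while supplemented steer 3 exceeded all restricted steers in complex I alone of the 3.

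**Figure D5:**
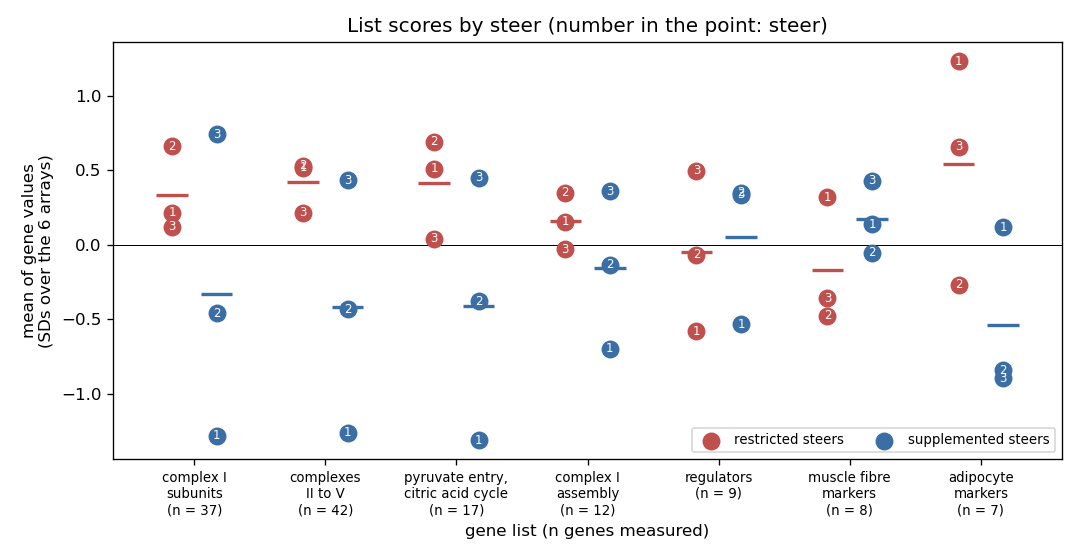
Score of each gene list by steer (points, numbered by steer; short lines are group means over 3 steers), with restricted steers left of supplemented steers in each list. In complex I subunits, supplemented steers 1, 2 and 3 stand at -1.28, -0.459 and 0.740, and the restricted steers between 0.121 and 0.662.

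Markers of other cells also varied between steers. All 7 measured adipocyte markers of 8 listed had a higher mean in restricted steers, where 49.5% of all genes did. Their score was 1.23, -0.269 and 0.656 in restricted steers, against 0.117, -0.842 and -0.894 in supplemented steers. Within the supplemented group, steer 1 had the highest adipocyte score and the lowest complex I score, and steer 3 the reverse. The defining marker ADIPOQ had a level of 5.21 and a difference of 1.78 SDs, with overlap. Its level, like those of PPARG (5.25) and LEP (5.27), was close to the median of 5.14 over all non-control probe sets. CFD, the adipokine adipsin, was 69.2, 84.3 and 81.6 millionths from its mean in restricted steers, against -60.9, -56.7 and -117.5 in supplemented steers. All restricted steers were thus above all supplemented ones, and the means differed by 6.35 SDs (limma unadjusted p = 0.000717, adjusted p = 1.0). CFD was the only 1 of the 7 adipocyte markers without overlap, where 4.15% of all genes were higher without overlap. Skeletal muscle fibre markers had a higher mean in 3 and a lower mean in 5 of 8 genes, with scores of -0.475 to 0.320 in restricted steers and -0.0520 to 0.430 in supplemented steers. The lower ones include MYH1, a myosin of fast glycolytic fibres, which differed by -3.46 SDs without overlap, where 4.59% of all genes were lower without overlap. Every other marker of this list overlapped between the diets, with differences from -0.842 (MB) to 0.35 SDs (TNNC1). Among them MYH7 differed by 0.181 and TNNT3 by -0.195 SDs.

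Fibroblast markers had a lower mean in 3 of 4 genes, with scores of -0.558 to 0.202 in restricted steers and -0.782 to 1.72 in supplemented steers, the highest being supplemented steer 1. Endothelial markers had a higher mean in 3 of 4 genes, with scores of -0.477 to 0.747 in restricted steers and -0.309 to 0.272 in supplemented steers. Macrophage and leukocyte markers had a higher mean in 2 of 4 genes, with scores of -0.159 to -0.0202 in restricted steers and -1.05 to 0.893 in supplemented steers. Red blood cell markers had a higher mean in 2 of 3 genes, with scores of -1.08 to 0.539 in restricted steers and -0.199 to 0.389 in supplemented steers. Their levels of 5.01 to 5.04 lay below the median of 5.14 over all non-control probe sets. So did those of KDR (4.98) and VWF (4.99) among endothelial markers and of CD68 (5.05) among macrophage and leukocyte markers. The part of fat, fibre type or other cells in the complex I values was not tested.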

How the data were processed

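Muscle RNA of 6 steers was amplified, starting from 100 ng of total RNA, labelled with biotin and hybridised to a 3 prime Affymetrix expression array, per the labels' protocols. The authors deposited 1 table of 24128 probe sets with expression values that are taken as log2 from their range. How the background was corrected, the arrays normalized and the probes summarized, and the base of the logarithm, is not stated in the sources used here. Arrays give no molecule counts, and their number limits precision.

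Control probe sets (112) were left out, and 2 others with equal values on all arrays had no test. The remaining 24014 were fitted in R 4.3.3 with limma 3.58.1 (lmFit and eBayes, no trend, values multiplied by 1000000), as restricted minus supplemented steers, and p-values were adjusted after Benjamini and Hochberg over all of them, with a threshold of 0.05. Each array holds another steer. The residual degrees of freedom were 4 and the prior ones 0.483. Group means closer than 0.0001 millionths were counted as equal. Gene symbols came from the platform's annotation table. The fit was also run on simulated data, with results not reported here. A gene that was not called may still differ between the diets.

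Subunits and the other lists were chosen with earlier results of these data known, and a list is described by counts and medians only. Values in every steer are given for all core subunits, NDUFAB1, NDUFA4 and the 4 genes with the smallest unadjusted p in each other role, and other genes where singled out after their values were seen. The other lists are represented by the 3 genes with the smallest p, with further assembly factors added after their values were seen. Alternatives were a shift to the same array median, quantile normalization, array weights, age, leaving out each steer, the replicate number as a block, probe sets above the median level, an intensity trend and averaged probe sets of a gene. The replicate numbers are shared between the diets but mark different steers. Promoter motifs were not analysed here.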

Additional observations from a re-analysis of the deposited data

How the results depend on the processing

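Under each alternative run for them, limma called 0 complex I genes, 0 assembly factors, 0 subunits of complexes II to V, 0 citric acid cycle genes and 0 regulators after adjustment over all probe sets. At an unadjusted p under 0.05 the number of complex I genes ran from 0 to 13, the highest without supplemented steer 3. In that fit 3.13% of all genes were higher and 2.61% lower at this threshold. With each steer left out in turn, the count of genes higher in restricted steers ran from 24 to 37, the count without overlap from 3 to 24 and the median difference from 0.313 to 1.98 SDs. Over all genes in these fits, 47.9% to 51.8% were higher, and 7.47% to 10.5% were higher without overlap. The median was 1.10 SDs with age as a covariate, and 0.313 SDs after the shift to a common array median, which rests on 2 probe sets and where 1 gene had no overlap. Quantile normalization left 15456 probe sets, 26 of the 37 genes among them, with equal values on all arrays. In that setting 3 of the 37 genes were higher, 6 lower, 28 had equal means and 0 were without overlap. Over all genes, 16.1% were higher and 0.12% were higher without overlap, so here the complex I genes were higher less often than all genes. Over all probe sets, limma's count of 1 (DHRS3) became 22 with quantile normalization, 0 with age (983 at an unadjusted p under 0.05), and 1 to 2 with a steer left out, COPB1 joining without supplemented steer 3.

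Of 245 values under alternatives for the 20 subunits chosen by role, which leave out NDUFC2 and NDUFB6, 237 kept their direction and 8 reversed. The replicate block, the intensity trend and the limit to probe sets above the median level leave each difference unchanged. Their values could not reverse, so the 237 is no measure of stability. Values with equal group means, as most were after quantile normalization, are not among the 245. NDUFA4 (-0.196 SDs) and NDUFS5 (-0.439 SDs) reversed with the shift to the same median, by the construction of that shift. NDUFB3, NDUFB5, NDUFB7 and NDUFS6 stood at -0.816 SDs with quantile normalization, where tied values leave little to compare. With single steers left out NDUFS7 ran from -0.176 to 1.82 SDs and NDUFV2 from -0.190 to 2.40 SDs, both being lowest without supplemented steer 1. The cause was not tested.

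The labels number the steers 1 to 3 in both diets. Same-numbered steers' deviations from their group means correlated at 0.0374, 0.0151 and 0.0152 over all probe sets. Steers with different numbers were not correlated for comparison, so these values cannot tell whether same-numbered steers share more than a number. With the replicate block limma called 0 probe sets (1191 at an unadjusted p under 0.05), and 32 of 37 complex I genes were higher with a median of 0.676 SDs. Each number holds a steer of either diet, so the block cannot change a difference, only its SD. The count of 32 was therefore fixed in advance.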
